A study of Mus musculus with 4 samples.

Results

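The BCL2 family decides whether the outer membrane of the mitochondrion stays intact. Its pro-survival proteins (BCL-2, BCL-XL, MCL-1 and A1) hold back the effectors BAX and BAK, which otherwise open pores in that membrane and release cytochrome c to activate caspases, and BH3-only proteins such as BIM, BID, BAD and NOXA tip the balance toward death by binding the pro-survival proteins or the effectors. In T cells, BCL-2 maintains resting cells, MCL-1 is needed at most stages, BCL-XL and A1 are induced by activation, and BIM drives the death of cells as an immune response ends. Here 10 genes of the family, chosen by name, were followed among the 47643 Ensembl genes of the count table. They were 4 pro-survival genes (Bcl2, Bcl2l1 for BCL-XL, Mcl1 and Bcl2a1b for A1) and 6 pro-death genes (the effectors Bax and Bak1, and the BH3-only genes Bcl2l11 for BIM, Bad, Bid and Pmaip1 for NOXA).

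The libraries came from spleens of Tg4 Nr4a3-Tocky Il10-EGFP mice, whose transgenic T cell receptor recognizes a peptide of myelin basic protein. All of the mice had received 4 mg/kg of the modified peptide [4Y]-MBP under the skin 24 h earlier. The cells were sorted as CD4+, and the paper describes the profiled populations as positive for the Nr4a3-driven Timer reporter, a sign of recent receptor signaling. Each population, Il10-EGFP+ and Il10-EGFP-, gave 2 libraries, with no unimmunized or Timer-negative library analysed here, so the comparison is between activated cells that did and did not report Il10 transcription. Reads were taken at the 3′ end of transcripts (QuantSeq), so that a count is close to 1 read per captured transcript and was not divided by length. The labels name mice as biological replicates without saying whether a replicate number marks the same mouse in both groups, so p-values measure the spread between these libraries. In edgeR, the test used below, each gene's spread was drawn strongly toward that of genes at like counts (prior degrees of freedom 52.2). An Il10 reporter marks transcription at that locus and does not by itself separate Tr1 cells from other Il10-transcribing cells.

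The libraries held between 644679 and 730330 counts, and 1 count was worth between 1.36 and 1.58 TMM-normalized CPM (the share of a library's counts, scaled to a common total; the scale used for levels). Il10 itself had a mean of 52.6 CPM in Il10-EGFP+ libraries and no count in the others. Defining T cell genes were present, with Cd4 at 149 to 209 and Cd3e at 62 to 99 counts, and of 8 CD4 T cell markers 7 had positive log2 fold changes and 1 (Trac) was called higher in Il10-EGFP+ libraries. Markers of other cells also moved with the groups. The summed level of 10 B cell markers was 116.7 and 160.5 CPM in Il10-EGFP- libraries, against 437.3 and 510.7 CPM in Il10-EGFP+ libraries, with 4 of the 8 that could be tested called higher, and that of 10 myeloid markers was 111.3 and 138.6 against 385.0 and 200.5 CPM, with 2 of 9 called higher. Summed CD8 and NK cell markers overlapped, at 38.0 and 64.2 against 46.0 and 66.4 CPM, and none of the 4 tested was called. The B cell markers called were Cd22, Ighm, Igkc (6 and 18 against 81 and 116 counts) and Jchain (0 and 0 against 15 and 16). Among myeloid markers, Lyz2 (29 and 23 against 66 and 34 counts) and S100a8 (1 and 17 against 58 and 28) were called. All 8 B cell markers tested and 8 of the 9 myeloid ones had positive log2 fold changes. Adgre1 and Ncr1 had no count in any library, and Cd79a had none in Il10-EGFP+ libraries. The part of such cells in the values of the BCL2 family was not tested, and in bulk RNA fewer cells of a type cannot be told apart from less RNA per cell.

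No BCL2 family member passed the test between the populations. With edgeR's quasi-likelihood test over all 9608 genes with at least 10 counts and Benjamini-Hochberg adjustment, 0 of the 3 pro-survival and 0 of the 5 pro-death members that could be tested passed an adjusted p of 0.05, where 4.09% of all genes did (2.35% higher and 1.74% lower). At an unadjusted p under 0.05 the counts were 0 of 3 and 1 of 5 (Bid, lower), where 15.5% of all genes did (7.96% higher and 7.49% lower). DESeq2's Wald test and limma on the deposited rlog values called 0 members and gave 0 at an unadjusted p under 0.05, although DESeq2 gave no adjusted p for Bcl2l1, Bad and Bid. With edgeR and no filter, or with library size as the only scaling, 2 pro-death members (Bak1 and Bid) were at an unadjusted p under 0.05, and neither was called. The remaining members, Bcl2a1b and Pmaip1, had 8 and 9 counts over all libraries and fell below the minimum. The median log2 fold change (Il10-EGFP+ over Il10-EGFP-) was 0.01 for the pro-survival and -0.19 for the pro-death members tested, beside a median of 0.00 over all genes tested.

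**Figure D1:**
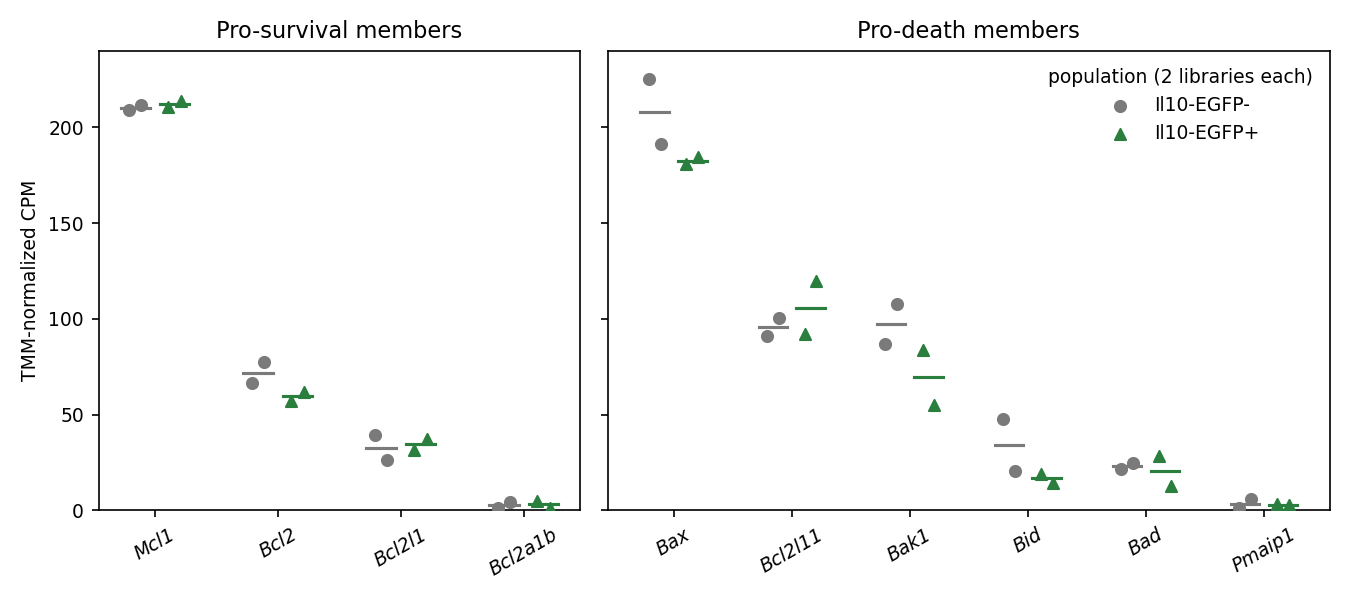
TMM-normalized CPM of each member in each library (points; circles Il10-EGFP-, triangles Il10-EGFP+, 2 libraries each; short lines are means). Mcl1 lies between 209.0 and 213.5 CPM in all 4 libraries, and both Il10-EGFP+ points of Bcl2, Bax, Bak1 and Bid lie below both Il10-EGFP- points, by margins that did not pass the test.

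Among the pro-survival genes, Mcl1 held 67.3% of the counts and varied least between libraries. Mcl1 (ENSMUSG00000038612, chromosome 3 of GRCm38, 95658788 to 95663176, plus strand), whose protein is short-lived and must be made continuously, had 154 and 145 counts in Il10-EGFP- libraries, against 133 and 148 in Il10-EGFP+ libraries. These were 210.3 ± 1.79 CPM and 212.1 ± 1.96 CPM (SD, n = 2 each). The populations were interleaved, and the log2 fold change was 0.01 with a 95% interval from -0.33 to 0.35 (adjusted p = 0.983, edgeR). With library size as the only scaling the sign turned, to -0.01.

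Bcl2 (ENSMUSG00000057329, chromosome 1, 106538178 to 106714274, minus strand) had 49 and 53 counts in Il10-EGFP- libraries, against 36 and 43 in Il10-EGFP+ libraries. Its level was 71.9 ± 7.65 against 59.5 ± 3.53 CPM (SD, n = 2 each). Both Il10-EGFP+ libraries lay below both others, but the log2 fold change of -0.27 (95% interval -0.81 to 0.27) did not pass the test (adjusted p = 0.725, edgeR). An antisense gene that shares exonic bases with Bcl2, D630008O14Rik, had 0 counts in every library.

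Bcl2l1 (ENSMUSG00000007659, chromosome 2, 152780668 to 152831728, minus strand) stood lower, with 29 and 18 counts in the Il10-EGFP- libraries, against 20 and 26 in the Il10-EGFP+ libraries. The lowest and the highest of these 4 values both came from Il10-EGFP- libraries. The level was 32.8 ± 9.26 against 34.6 ± 4.11 CPM (SD, n = 2 each), and the log2 fold change was 0.07 with a 95% interval from -0.67 to 0.81 (adjusted p = 0.969, edgeR). The direction rested on single libraries, since it was -0.18 when Il10-EGFP- replicate 2 was left out and 0.40 when Il10-EGFP- replicate 1 was left out.

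Bcl2a1b (ENSMUSG00000089929, chromosome 9, 89199209 to 89207827, plus strand) was at the limit of detection, with 1 and 3 counts in the Il10-EGFP- libraries, against 3 and 1 in the Il10-EGFP+ libraries, no more than the 3 counts that a library at 0 still allows. A1 is encoded in the mouse by several nearly identical genes on chromosome 9, and the opening of their coding sequence is shown because it makes plain how little separates one copy from the next. The first 60 coding bases follow, from GENCODE M21 transcripts on GRCm38, with bases that differ among the 3 genes in capitals. They lie at chr9:89199360-89199419 (plus strand) for Bcl2a1b, chr9:88957051-88957110 (plus strand) for Bcl2a1a and chr9:88731660-88731719 (minus strand) for Bcl2a1d.
Bcl2a1b: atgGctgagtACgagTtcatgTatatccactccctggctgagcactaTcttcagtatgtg
Bcl2a1a: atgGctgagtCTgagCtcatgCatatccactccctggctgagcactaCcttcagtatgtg
Bcl2a1d: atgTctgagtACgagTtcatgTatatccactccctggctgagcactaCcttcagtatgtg

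Over the whole coding sequence of 516 bases, Bcl2a1a matched Bcl2a1b at 97.9% and Bcl2a1d at 98.8% of positions. In the last 500 bases of the transcript, where QuantSeq reads fall, 86.9% of the 50-base sequences of Bcl2a1b also occurred in another gene, among them Bcl2a1d, Bcl2a1a and Gm29094. A read from that part has no single gene of origin. Bcl2a1a had 0 counts in every library and Bcl2a1d had 1 or 0. Gm29094, which shares 401 exonic bases with Bcl2a1b on the same strand, had 0, 0, 3 and 0 counts, the 3 in Il10-EGFP+ replicate 1. How reads that match several copies were counted is not given in the sources used here. The counts of Bcl2a1b, its rank among the members and its part in pro-survival sums and shares are therefore uncertain. No difference was detectable at this depth, and the few counts do not show that A1 is little expressed.

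Among the pro-death genes, both effectors had negative log2 fold changes that did not pass the test. Bax (ENSMUSG00000003873, chromosome 7, 45461697 to 45466898, minus strand), which moves from the cytosol to mitochondria in dying cells, held 45.5% of the pro-death counts. It had 166 and 131 counts in Il10-EGFP- libraries, against 114 and 128 in Il10-EGFP+ libraries, or 208.2 ± 24.2 against 182.6 ± 2.85 CPM (SD, n = 2 each). The groups did not overlap, and Il10-EGFP- replicate 1 was the highest by the widest margin. The log2 fold change was -0.19 with a 95% interval from -0.54 to 0.16 (adjusted p = 0.685, edgeR). Bax shares 192 exonic bases with Gm45808 on the same strand. None of them lie in the last 500 exonic bases of the gene, but over the ends of its 5 annotated transcripts 16.8% of the 50-base sequences also occur in Gm45808.

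Bak1 (ENSMUSG00000057789, chromosome 17, 27019810 to 27029009, minus strand), whose protein sits in the mitochondrial membrane, had 64 and 74 counts in Il10-EGFP- libraries, against 53 and 38 in Il10-EGFP+ libraries. This was 97.4 ± 14.9 against 69.4 ± 20.6 CPM (SD, n = 2 each). The Il10-EGFP+ libraries were further from each other (84.0 and 54.8 CPM) than the nearest libraries of the groups (84.0 and 86.9 CPM). The log2 fold change was -0.49 with a 95% interval from -1.0 to 0.0085 (adjusted p = 0.338, edgeR). Leaving out Il10-EGFP+ replicate 2 gave -0.21 and leaving out replicate 1 of that population gave -0.82, with adjusted p of 0.855 and 0.176 (edgeR).

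None of the BH3-only genes passed the test, and their log2 fold changes had both signs. Bcl2l11 (ENSMUSG00000027381, chromosome 2, 128126038 to 128162547, plus strand) was the most abundant of them, with 67 and 69 counts in the Il10-EGFP- libraries, against 58 and 83 in the Il10-EGFP+ libraries. Its level was 95.8 ± 6.88 against 105.8 ± 19.7 CPM (SD, n = 2 each). Il10-EGFP+ replicate 2 was the highest and replicate 1 lay among the Il10-EGFP- libraries. The log2 fold change was 0.15 with a 95% interval from -0.30 to 0.60 (adjusted p = 0.842, edgeR), and without Il10-EGFP+ replicate 2 it was -0.06.

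Bid (ENSMUSG00000004446, chromosome 6, 120891930 to 120916853, minus strand), which links death receptors to mitochondria once caspase-8 has cut it, had the largest difference of the members tested. It had 35 and 14 counts in Il10-EGFP- libraries, against 12 and 10 in Il10-EGFP+ libraries, or 34.0 ± 19.1 against 16.7 ± 3.24 CPM (SD, n = 2 each). A single library, Il10-EGFP- replicate 1, was high, and the other Il10-EGFP- library stood beside the Il10-EGFP+ libraries. The log2 fold change was -1.03 with a 95% interval from -1.93 to -0.13, an unadjusted p of 0.0255 and an adjusted p of 0.230 (edgeR). Without Il10-EGFP- replicate 1 it was -0.29 (adjusted p = 0.906, edgeR). The last 500 exonic bases of Bid all lie within exons of Bcl2l13 on the other strand, and the strand setting of the counting was not given in the sources used here, so reads of these neighbors may not have been kept apart, which was not tested. Bcl2l13, itself a BCL2-related gene, had 26 and 27 counts against 17 and 23.

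Bad (ENSMUSG00000024959, chromosome 19, 6941861 to 6951899, plus strand), whose protein is held inactive when growth factor signaling phosphorylates it, had 16 and 17 counts in Il10-EGFP- libraries, against 18 and 9 in Il10-EGFP+ libraries. The Il10-EGFP+ libraries were the highest and the lowest of the set. The level was 23.3 ± 2.18 against 20.8 ± 11.0 CPM (SD, n = 2 each), with a log2 fold change of -0.18 (95% interval -1.11 to 0.75, adjusted p = 0.926, edgeR). Leaving out Il10-EGFP+ replicate 2 turned it to 0.29, and leaving out replicate 1 instead gave -0.83. Pmaip1 (ENSMUSG00000024521, chromosome 18, 66458533 to 66465565, plus strand), a p53 target whose protein binds MCL-1, had 1 and 4 counts against 2 and 2, and no difference was detectable.

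**Figure D2:**
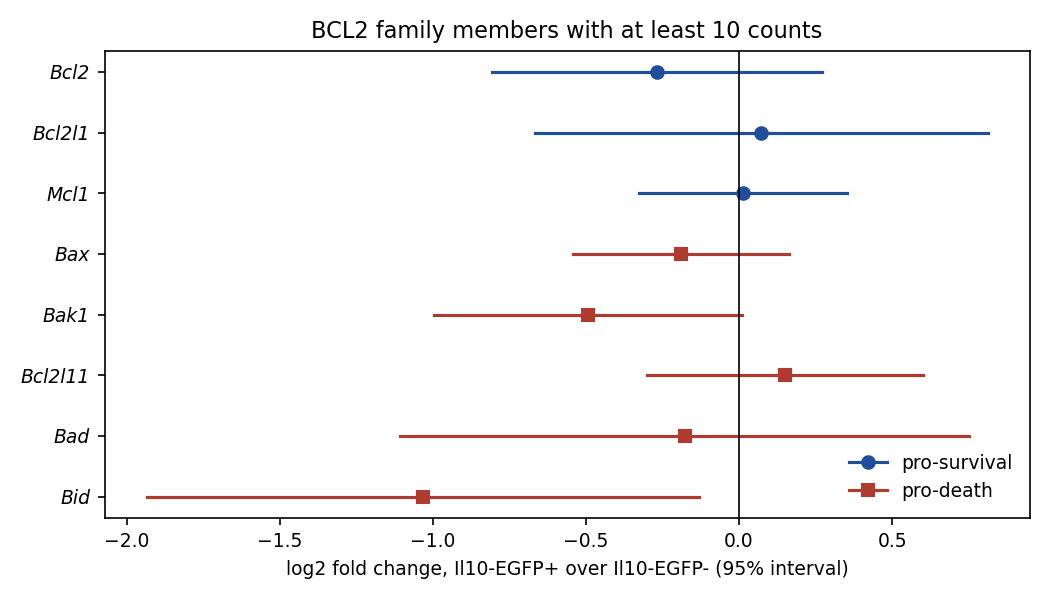
Log2 fold change of the 8 members tested, Il10-EGFP+ over Il10-EGFP- (points), with 95% intervals from the edgeR fit (lines); circles are pro-survival and squares pro-death genes. The interval includes 0 for 7 of the 8, is narrowest for Mcl1 and Bax, and for Bid runs from -1.93 to -0.13.

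The precision followed the counts. Among all genes with a mean of 100 to 300 counts, the depth of Mcl1 and Bax, 11.3% were called, and the smallest log2 fold change called was 0.49 in size. With 30 to 100 counts, the depth of Bcl2, Bak1 and Bcl2l11, 6.41% were called and the smallest was 0.66. With 10 to 30 counts, the depth of Bcl2l1, Bid and Bad, 2.14% were called and the smallest was 1.14. Each member tested lay within the smallest change called at its own depth, so no gene of its depth range was called on a change as small. These bounds come from the called genes of the same data and are not a limit of detection for a given member.

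**Figure D3:**
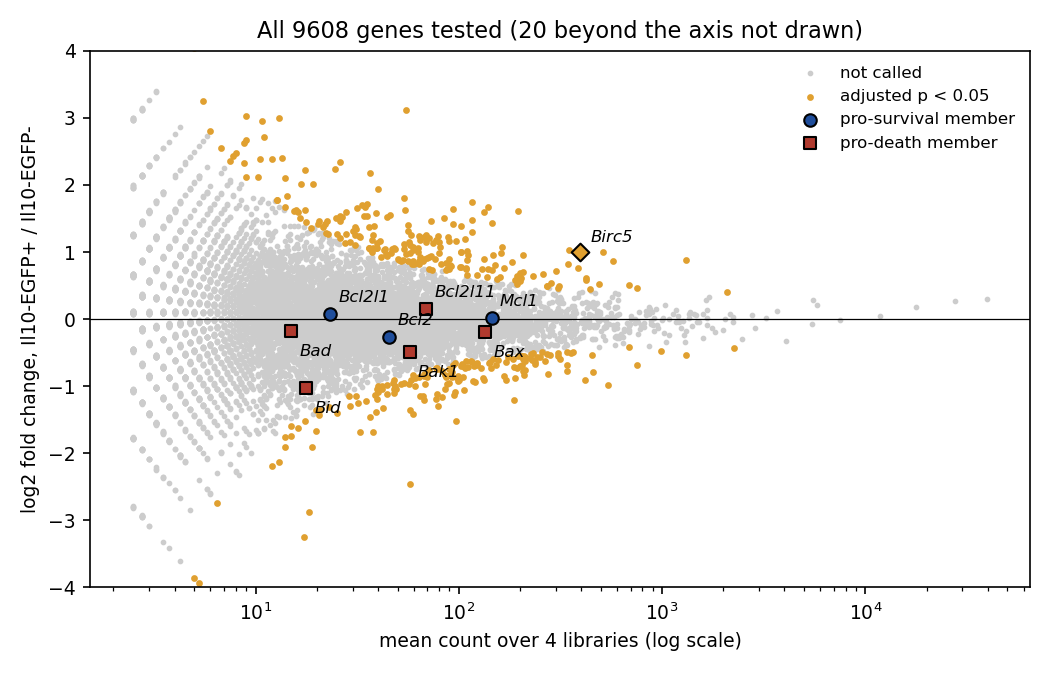
Log2 fold change against the mean count over the 4 libraries (log scale) for the genes tested, with the members drawn as circles (pro-survival) and squares (pro-death) and called genes in orange. All 8 members lie inside the gray cloud, while Birc5, at a log2 fold change of 1.00, lies above it; 20 genes beyond the axis limit of 4 are not drawn.

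Across libraries, 4 members (Bcl2, Bax, Bak1 and Bid) were lower in both Il10-EGFP+ libraries than in both Il10-EGFP- libraries and none was higher, where 22.3% of all genes tested were lower without overlap and 22.3% higher. In order of mean level, Mcl1 at 211.2 CPM and Bax at 195.4 CPM led, and their ranges over the 4 libraries overlapped. Bcl2l11 at 100.8, Bak1 at 83.4 and Bcl2 at 65.7 CPM followed, each overlapping its neighbor. Bcl2l1 at 33.7, Bid at 25.3 and Bad at 22.0 CPM overlapped in the same way, and Pmaip1 at 3.31 and Bcl2a1b at 2.98 CPM were last. On the deposited rlog scale, in which low counts are drawn toward each other, the mean differences of the same 4 genes were -0.08, -0.10, -0.18 and -0.15. The order of levels is that of 3′ end counts and can depend on how well each transcript end is captured. For Bcl2a1b it can also depend on how reads shared with its copies were counted.

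Summed by class, the pro-survival genes had 316.3 and 319.5 CPM in Il10-EGFP- and 304.2 and 314.5 CPM in Il10-EGFP+ libraries. The pro-death genes had 473.7 and 450.8 against 407.2 and 389.5 CPM. The ratio of pro-survival to pro-death counts within a library, which no scaling between libraries can alter, was 0.67 and 0.71 in Il10-EGFP- libraries, against 0.75 and 0.81 in Il10-EGFP+ libraries. Within a library the ratio of Bcl2l11 to Bcl2, an opposed pair in resting lymphocytes, was 1.37 and 1.30 in Il10-EGFP- libraries, against 1.61 and 1.93 in Il10-EGFP+ libraries, and that of Mcl1 to Bak1, whose proteins bind each other, was 2.41 and 1.96 against 2.51 and 3.89. The ratios of Bcl2 to Bax (0.30 and 0.40 against 0.32 and 0.34) and of Mcl1 to Bcl2l11 (2.30 and 2.10 against 2.29 and 1.78) overlapped between the populations, as did those of Bax to Bak1 (2.59 and 1.77 against 2.15 and 3.37) and of Bcl2l1 to Bak1 (0.45 and 0.24 against 0.38 and 0.68). These ratios were picked with the values of the genes known and are given without a test; with 2 libraries a group, an exact two-sided permutation test cannot go below 0.333.

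The genes whose pattern over the 4 libraries was nearest to that of Bak1, the member with the largest F statistic among those with a mean of at least 20 counts, were Zc3h12d, Lrrc42 and Lrrc58, at Euclidean distances of 0.08, 0.10 and 0.10 on centered log2 CPM among 4964 genes. None of them was called, with adjusted p between 0.389 and 0.651 (edgeR).

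Of 56 other genes of the pathway in 5 lists, 46 could be tested, and 1 was called, Birc5, where 2.35% of all genes tested were called higher. At an unadjusted p under 0.05, 5 had positive and 5 negative log2 fold changes, beside 7.96% higher and 7.49% lower over all genes. Birc5 encodes survivin, an inhibitor of apoptosis family protein whose main role is in mitosis, as part of the chromosomal passenger complex. It had 274 and 279 counts in Il10-EGFP- libraries, against 515 and 513 in Il10-EGFP+ libraries, or 389.5 ± 24.9 against 778.1 ± 53.7 CPM (SD, n = 2 each). The populations were far apart. Its log2 fold change of 1.00 had a standard error of 0.14 and an adjusted p of 1.0e-06 (edgeR), and Birc5 was called under every alternative.

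The other BCL2 family list had 16 genes, of which 6 could be tested and 10 were too low. The 6 genes without a single count were Bcl2a1a, Bcl2l10, Bok, Bmf, Hrk and Bcl2l15. The best counted were Becn1, an autophagy gene (log2 fold change -0.21), and Bcl2l13 (-0.31), and none was called. Becn1 was at -0.54 without Il10-EGFP+ replicate 1 and at 0.08 without Il10-EGFP+ replicate 2. The list of cytochrome c, apoptosome and caspase genes had 13 genes, all tested and none called, with a median log2 fold change of -0.06. Parp1, a caspase substrate, led it with 93 and 76 against 95 and 123 counts (0.47, adjusted p = 0.207, edgeR), followed by Aifm1 (-0.06). Aifm1 was at 0.39 without Il10-EGFP- replicate 1 and at -0.39 without Il10-EGFP- replicate 2. All 5 inhibitor of apoptosis genes had positive log2 fold changes, where 4804 of the 9608 genes tested did. Their median was 0.61, and Birc6, the second in counts, was at 0.17. Birc3, named after its values were seen, turned to -0.48 without Il10-EGFP+ replicate 2. The 10 death receptor genes had a median of 0.48 and none was called. In that list Casp8, the protease that cuts BID, had 248 and 323 against 302 and 339 counts (0.26, adjusted p = 0.415, edgeR), and Cflar, its inhibitor, had 40 and 48 against 48 and 65 (0.46, adjusted p = 0.417, edgeR). Without Il10-EGFP- replicate 1 they were at 0.04 and 0.28, and without Il10-EGFP- replicate 2 at 0.53 and 0.65. The 12 regulators and partners of the members had a median of 0.06 and none was called. Ywhaz, a 14-3-3 protein gene, led them in counts (0.15), and then Vdac2, a channel protein that binds BAK, with 284 and 265 against 175 and 206 counts (-0.43, adjusted p = 0.101, edgeR).

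Of the genes below an unadjusted p of 0.05, named after their values were seen, those with negative log2 fold changes were Trp53, Vdac2, Mtch2 (a mitochondrial docking protein for cut BID), Cycs (cytochrome c) and Htra2, a protease released from mitochondria. Trp53, which encodes p53, had 55 and 53 counts in Il10-EGFP- libraries, against 32 and 21 in Il10-EGFP+ libraries (log2 fold change -0.92, adjusted p = 0.0666, edgeR). Htra2 had 32 and 36 against 17 and 14 counts (log2 fold change -1.02, adjusted p = 0.105, edgeR). Those with positive values, besides Birc5, were Xiap (0.61), Casp6 (0.58), Parp1 and Tnfsf10, which encodes the death ligand TRAIL and had 3 and 4 against 9 and 13 counts (1.71, adjusted p = 0.187, edgeR). Apart from Birc5, each of these 10 missed the adjusted threshold, but Trp53 was called without Il10-EGFP+ replicate 1 (log2 fold change -1.32, adjusted p = 0.0310, edgeR) and was at -0.58 without Il10-EGFP+ replicate 2 (adjusted p = 0.518, edgeR).

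**Figure D4:**
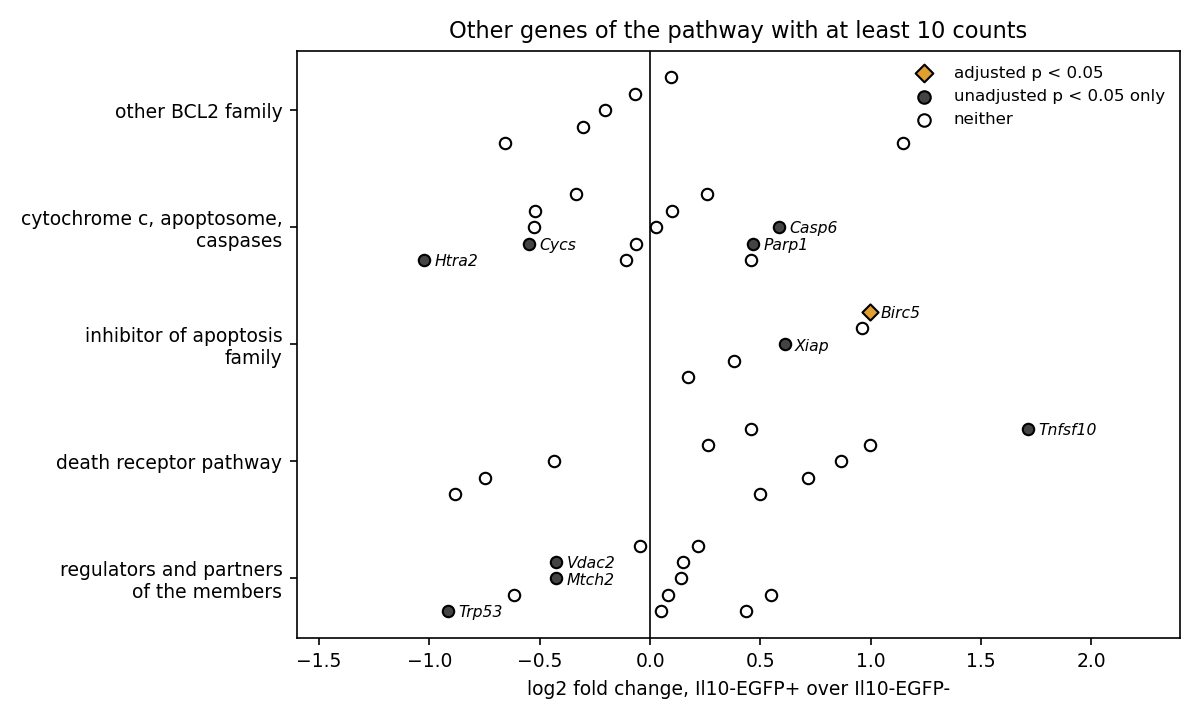
Log2 fold change of the 46 pathway genes tested, by list (rows; height within a row is only for legibility). The diamond is Birc5, the 1 gene past an adjusted p of 0.05; filled circles are genes with an unadjusted p under 0.05 only, 5 of them below 0 and 4 above.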

How the data were processed

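The authors sequenced QuantSeq FWD 3′ libraries and, per the labels and methods, aligned them to GRCm38 in the BlueBee pipeline (STAR 2.5.2a, HTSeq 0.6.0). They deposited raw counts of reads per Ensembl gene, and DESeq2 rlog values on a log2 scale for 9546 genes. Per the methods, unique molecular identifiers served to assess PCR duplicates and remove amplification bias. The methods call the counts read counts, and whether reads were first collapsed by identifier is not stated outright. The strand setting is not given in the sources used here. The authors removed 1 further replicate pair as an outlier, which was not analysed here.

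A gene entered the test when its counts summed to 10 or more across the 4 libraries. The test was edgeR 4.0.16 (TMM, default glmQLFit and glmQLFTest, R 4.3.3), and p-values were adjusted over all of them. Standard errors and 95% intervals came from the fold change and the F statistic. Depth was 644679 to 730330 counts, and intervals cover these libraries only. Symbols came from a table that lacked 419 identifiers, and positions from GENCODE M21. The scripts were tested on simulated counts. Alternatives were other filters, scalings, DESeq2 1.42.0, limma 3.58.1 on rlog, bias-adjusted deviances, a replicate block and leaving out each library. The members and gene lists were chosen with earlier results of these data known. The text names all members, called pathway and marker genes, the 2 best counted of each pathway list and the 3 genes most like 1 member. Other pathway genes are named only where stated to be chosen after their values were seen, or for having no count. Of the lists, 1 gene is not reported here.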

Additional observations from a re-analysis of the deposited data

How the results depend on the processing

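No alternative called a member of the BCL2 family. At an unadjusted p under 0.05 there were 1 pro-death and 0 pro-survival members, with 2 pro-death members under no filter, library size only, the replicate block and without Il10-EGFP+ replicate 1, and 0 by DESeq2, by limma and without Il10-EGFP+ replicate 2. Of 95 recomputed log2 fold changes of the 8 members tested, 90 kept their direction and none passed the threshold, with no adjusted p from DESeq2 for Bcl2l1, Bad and Bid. The 5 that turned were all near 0 or on few counts: Mcl1 with library size only (-0.013), Bcl2l1 without replicate 2 of either population (-0.18 for Il10-EGFP-, -0.056 for Il10-EGFP+), and, without Il10-EGFP+ replicate 2, Bcl2l11 (-0.058) and Bad (0.29). Apart from the fits that leave out a library, the adjusted p of Bid ran from 0.0698 to 0.470 and that of Bak1 from 0.277 to 0.792. Leaving out each library in turn gave log2 fold changes of -1.50 to -0.29 for Bid, -0.82 to -0.21 for Bak1, -0.18 to 0.40 for Bcl2l1, -0.058 to 0.33 for Bcl2l11 and -0.83 to 0.29 for Bad. The ranges were -0.37 to -0.16 for Bcl2, -0.30 to -0.065 for Bax and 0.0032 to 0.025 for Mcl1. The genes called in all were 393, with 115 by DESeq2's Wald test, 197 by limma on the rlog values and 201 to 264 without 1 library (fewer samples). The cause of the first 2 was not tested. The summed pro-survival level had a log2 ratio of -0.04, -0.07 with library size only and -0.063 to -0.016 without 1 library, and the summed pro-death level one of -0.21, -0.24 and -0.25 to -0.18. Pathway genes called were 1, or 1 to 2 without 1 library, and 3 with the replicate block (Birc5, with Trp53 and Vdac2 lower, at adjusted p of 0.0363 and 0.0374, edgeR). Same-numbered libraries did not deviate together (correlation 0.01 across 6781 genes). With a single difference between libraries in each group, this cannot decide whether the numbers mark pairs, and the methods speak of a replicate pair removed. The block called 560 genes in all.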
